A study of Mus musculus with 25 samples.

Results

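The mitosis and spindle genes are 40 mouse genes, picked by symbol from a given list, whose proteins drive entry into mitosis, hold sister chromosomes to the spindle, pull them apart and divide the cell. All 40 were found among the 24015 gene symbols of the tumour table and again among the 24015 of the cell table. They were followed in 17 RNA sequencing libraries. Of these, 4 came from resistant and 4 from sensitive basal cell carcinomas of C57BL6 mice that were Ptch+/-, p53 fl/fl and carried K14 Cre-ER, a tamoxifen-inducible Cre driven by the keratin 14 promoter of basal keratinocytes. Both groups of mice were given a Smo inhibitor by oral gavage, so neither group is untreated. The other 9 libraries came from ASZ001, a line of mouse basal cell carcinoma called resistant in the series, treated with CCG-1423, an inhibitor of signalling through RhoA and the SRF coactivators MRTF, with vismodegib, an inhibitor of Smo, or with vehicle, in 3 libraries each. The sources used here give neither the agent in the mice nor doses, times or ages. They do not say whether libraries of a group came from separate animals or cultures, so p-values reflect the spread between these libraries alone, which may be technical. The 8 exome samples of the series were not analysed here.

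Mitosis is switched on by Cdk1 bound to B-type cyclins, and the kinases Plk1, Aurka and Aurkb then build the spindle and correct faulty attachments of chromosomes. The spindle checkpoint keeps the anaphase-promoting complex idle until every kinetochore is attached. Cdc20 then directs that complex against securin and cyclin B, and separase, set free from securin, cuts the cohesin ring. Most of these genes are transcribed mainly in G2 and M phase, under the DREAM and MuvB complexes, B-Myb and FOXM1, which act through a promoter element called the cell cycle genes homology region (CHR), and under NF-Y, which binds the sequence CCAAT. Their RNA is therefore widely used as a measure of how many cells of a tissue are dividing. In basal cell carcinoma, division is driven by the Hedgehog pathway, which Smo switches on.

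1 library stood apart from its group. Sensitive tumour 4 correlated across genes with the resistant tumours at a mean r of 0.952 and with sensitive tumours 1 to 3 at 0.828. Reads of Y-linked genes numbered 0 in all resistant tumours and in sensitive tumour 4 but 1391 to 2174 in sensitive tumours 1 to 3, so that sex and group coincide once sensitive tumour 4 is left out, and their effects cannot be told apart. Whether this library is labelled correctly is in doubt, and values with all 8 tumours take its label as given. Leaving it out was a choice made with its position known, and fold changes in the tumours are given with and without it. Reads at genes numbered 17537094 to 20014426 in resistant tumours, 8111252 to 11125956 in sensitive tumours 1 to 3, with 14161398 in sensitive tumour 4, and 30455530 to 44017757 in the cell libraries. Of 7 keratinocyte markers, all had reads in every library. In ASZ001 cells the Hedgehog target genes Gli1 and Ptch1 had reads in every library, whereas Hhip was at 0 reads in 8 of the 9.

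The promoters of the members share sequence features that no expression value was used to find. RefSeq promoter windows of the build GRCm38.p6 ran from 250 bases before to 50 bases after the annotated start. They were found for 34 of the 40 members, 3 of which have 2 windows, giving 37. The 2 windows of Bub3, of Ect2 and of Prc1 overlap and hold the same hits, which the shares below count in both. The CHR core TTTGAA, sought on both strands, was in 28 of these 37 windows (75.7%), against 17.9% of all 32851 windows in the table. Its variant TTTAAA was in 24.3%, against 13.2% of all windows. CCAAT, on either strand, was in 30 windows (81.1%), against 37.4% of all, and 51.4% held at least 2 copies, against 11.7%. A window with both TTTGAA and CCAAT was found for 67.6% of the members' windows and for 6.95% of all. No motif of the 3 was in 3 members' windows, those of Nuf2, Mad2l1 and Pttg1, which is 8.11% against 45.7% of all. Among the hits searched, 1 overlapped another. The first base of TTTGAA lay at a median of 14.5 bases before the start over 36 hits, of which 26 read forward, and that of CCAAT at a median of 69.5 bases before it over 62 hits, with all 37 windows counted. These matches describe letters in the windows and do not show that a factor binds there.

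**Figure D1:**
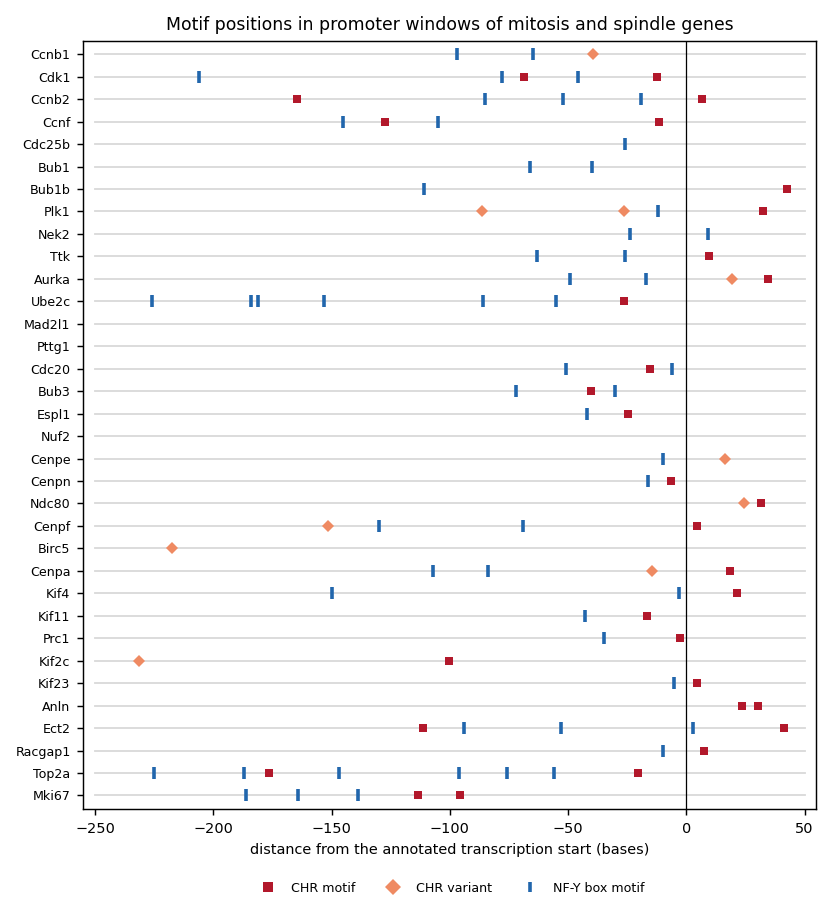
Positions of the CHR motif, its variant and the NF-Y box in the promoter windows of 34 members (the first window of each), in bases from the annotated transcription start (x axis), 1 line per gene, with genes ordered by role. In these first windows the first base of the CHR motif has a median position of -11.5 over 32 hits and that of the NF-Y box of -67.5 over 56 hits. The lines of Mad2l1, Pttg1 and Nuf2 are empty.

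The windows of 6 members are printed to show both kinds of promoter, 5′ to 3′ along the gene. The first 4 hold TTTGAA and CCAAT and come in order of the tumour fold change below, and the last 2 hold no motif. Capitals mark TTTGAA and CCAAT or their reverse complements TTCAAA and ATTGG. They are Top2a (chr11:99024140-99024439, minus strand), Kif4 (chrX:100625815-100626114, plus strand), Mki67 (chr7:135716330-135716629, minus strand), Ect2 (chr3:27153805-27154104, minus strand), Nuf2 (chr1:169531415-169531714, minus strand) and Mad2l1 (chr6:66534971-66535270, plus strand).
Top2a: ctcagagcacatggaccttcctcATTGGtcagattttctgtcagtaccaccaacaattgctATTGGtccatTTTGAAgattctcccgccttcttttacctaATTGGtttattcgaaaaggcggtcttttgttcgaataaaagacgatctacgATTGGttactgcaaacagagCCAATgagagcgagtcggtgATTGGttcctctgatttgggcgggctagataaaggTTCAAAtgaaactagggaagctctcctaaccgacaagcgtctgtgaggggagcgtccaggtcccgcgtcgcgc
Kif4: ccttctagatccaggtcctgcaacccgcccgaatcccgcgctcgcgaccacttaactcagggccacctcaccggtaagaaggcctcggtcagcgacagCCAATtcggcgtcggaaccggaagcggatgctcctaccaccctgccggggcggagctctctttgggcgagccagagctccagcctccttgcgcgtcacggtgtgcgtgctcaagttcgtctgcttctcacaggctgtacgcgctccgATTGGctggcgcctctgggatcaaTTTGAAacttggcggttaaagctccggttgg
Mki67: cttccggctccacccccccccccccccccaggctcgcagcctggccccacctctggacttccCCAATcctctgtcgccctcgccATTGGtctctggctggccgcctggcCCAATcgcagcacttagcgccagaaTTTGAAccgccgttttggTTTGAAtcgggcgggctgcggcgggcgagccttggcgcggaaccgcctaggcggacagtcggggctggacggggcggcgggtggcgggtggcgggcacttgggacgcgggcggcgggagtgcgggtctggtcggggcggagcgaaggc
Ect2: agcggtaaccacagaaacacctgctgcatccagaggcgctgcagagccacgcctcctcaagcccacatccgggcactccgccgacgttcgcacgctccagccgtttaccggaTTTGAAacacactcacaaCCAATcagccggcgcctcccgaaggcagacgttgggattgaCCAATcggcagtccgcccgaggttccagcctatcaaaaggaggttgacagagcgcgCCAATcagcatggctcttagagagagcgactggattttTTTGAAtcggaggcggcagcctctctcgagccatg
Nuf2: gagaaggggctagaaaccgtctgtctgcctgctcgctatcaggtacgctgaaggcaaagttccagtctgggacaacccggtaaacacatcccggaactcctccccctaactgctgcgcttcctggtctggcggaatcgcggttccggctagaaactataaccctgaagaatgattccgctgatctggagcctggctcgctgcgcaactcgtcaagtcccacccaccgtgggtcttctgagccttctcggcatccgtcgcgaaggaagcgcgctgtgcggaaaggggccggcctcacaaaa
Mad2l1: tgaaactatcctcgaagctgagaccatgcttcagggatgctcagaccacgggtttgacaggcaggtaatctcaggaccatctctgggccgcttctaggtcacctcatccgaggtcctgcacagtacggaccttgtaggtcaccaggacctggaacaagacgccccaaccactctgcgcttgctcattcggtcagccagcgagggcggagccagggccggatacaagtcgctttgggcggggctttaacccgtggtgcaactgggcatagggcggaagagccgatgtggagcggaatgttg
The Top2a window holds 6 CCAAT boxes and 2 CHR motifs, that of Mki67 3 and 2, that of Ect2 3 and 2, and that of Kif4 2 and 1. Foxm1, Ccna2, Cdc25c, Aurkb, Kif20a and Tpx2 have no window in the table.

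The tumours were compared to ask how far the mitotic genes differ between carcinomas that resist and carcinomas that respond to Smo inhibition. In all 8 tumours the mitotic genes lay higher in the resistant group on average, yet 0 of the 40 passed the test, and sensitive tumour 4 had some of the highest values of all. The members together took 0.259%, 0.122%, 0.169% and 0.252% of reads in resistant tumours 1 to 4, against 0.0646%, 0.0555% and 0.0359% in sensitive tumours 1 to 3, with 0.308% in sensitive tumour 4. Sensitive tumour 4 was the highest of the 8 for 30 members, exceeded every resistant tumour for 31 and lay within the resistant range for the other 9. Sensitive tumour 3 was the lowest of the 8 for 37 members. In whole tumours, fewer dividing cells and less of these RNAs per dividing cell cannot be told apart.

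**Figure D2:**
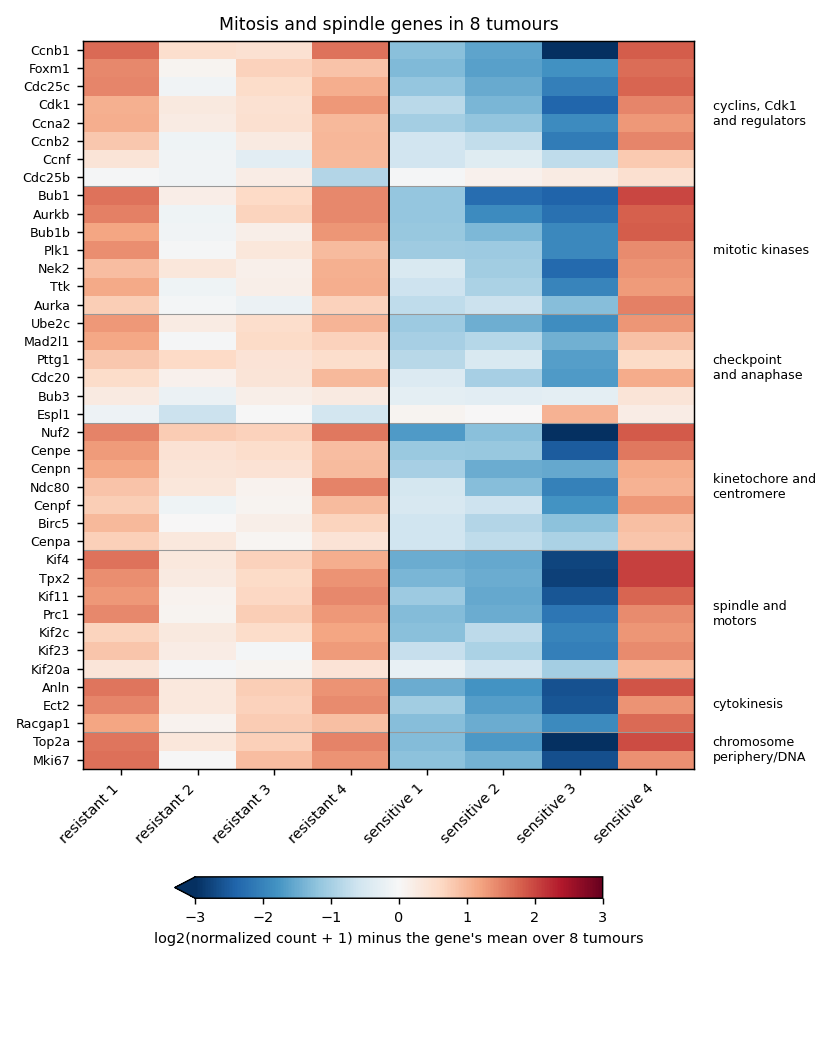
Level of each member (rows, grouped by role) in each tumour (columns), as log2(normalized count + 1) minus the gene's mean over the 8 tumours; colours stop at -3. Sensitive tumours 1 to 3 are blue for nearly all rows, the resistant tumours are near white (mainly resistant tumour 2) to red, sensitive tumour 4 is red, and the rows of Espl1 and Cdc25b run otherwise.

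Values below are normalized counts, that is reads divided by a size factor per library, and are listed in the order of replicate numbers. Fold changes are differences of log2(normalized count + 1), given as log2 with the standard error of the limma fit, and adjusted p-values are Benjamini-Hochberg values over all genes tested, with a threshold of 0.05. In all 8 tumours (4 against 4), 0 of the 40 members passed, against 0.113% of the 15076 genes tested. Adjusted p-values of the members ran from 0.161 to 0.502, and edgeR and DESeq2 also called 0 members. An unadjusted p under 0.05 was found for 13 of the 40 members and for 3789 of the 15076 genes tested. The median log2 fold change of the members, resistant over sensitive, was 1.39, with 38 positive and 2 negative, beside a median of 0.029 over all genes. On the same tumours it was 0.77 with edgeR and 0.78 with DESeq2, and 0.97 in the limma fit without sensitive tumour 3. No member had all resistant tumours above all sensitive ones (3.9% of genes had), and 1, Espl1, had all of them below (4% of genes had). Without sensitive tumour 4 (4 against 3), 37 of the 40 members were higher in the resistant tumours, against 20.6% of the 15479 genes tested, and 0 were lower, against 19.4%. Of these, 35 were at least 2-fold higher, which held for 12.3% of all genes. The median log2 fold change of the members was 2.06 (2.08 with edgeR and with DESeq2) and that of all genes 0.016. The groups did not overlap for 38 members that lay higher, against 24.3% of genes, and for 1 that lay lower, against 23.3%. With libraries scaled to their total reads the median of all genes was -0.13, the share of all calls that were higher was 40.3% instead of 51.5%, and 36 members were called as higher.

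**Figure D3:**
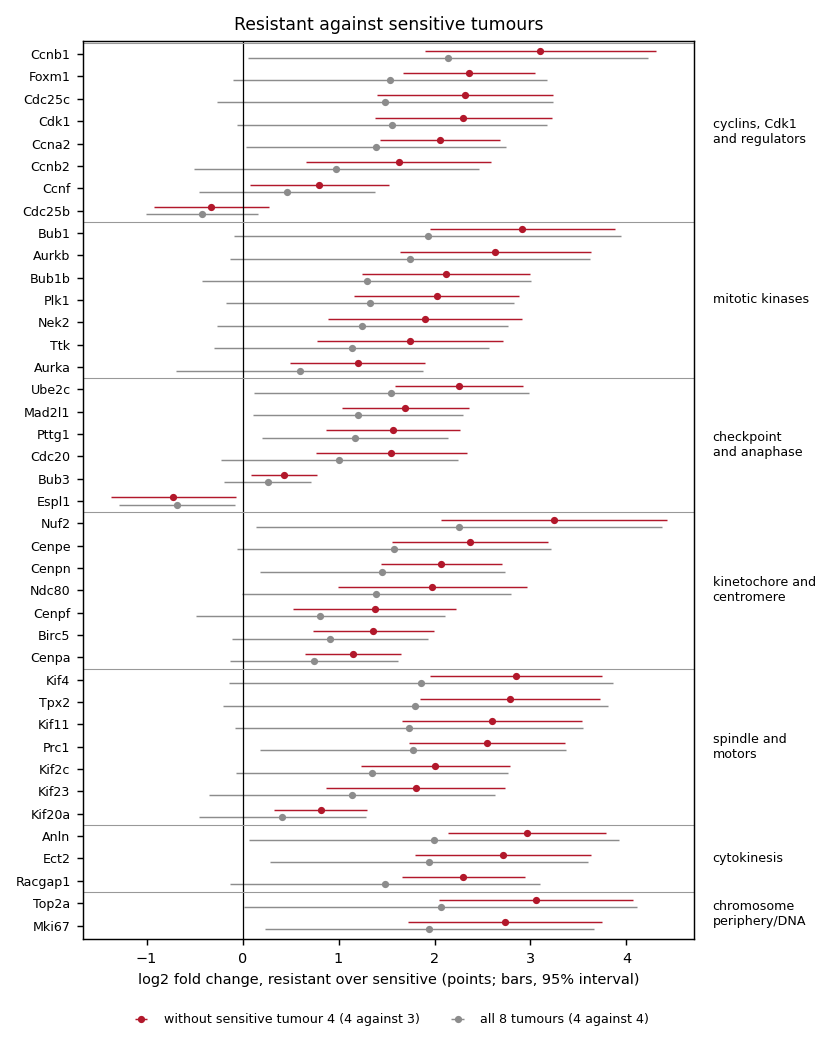
Log2 fold change of each member, resistant over sensitive tumours (points), with its 95% interval (bars), without sensitive tumour 4 (red, 4 against 3) and with all 8 tumours (grey, 4 against 4). Red points run from -0.72 for Espl1 to 3.24 for Nuf2, and the grey points lie closer to 0 with wider bars.

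Among the cyclins, Cdk1 and their regulators, 6 of 8 members rose in the resistant tumours without sensitive tumour 4. Ccnb1, the cyclin that carries Cdk1 into mitosis, had 544, 236, 229 and 517 normalized counts in resistant tumours 1 to 4, against 69.1, 55.1 and 16.6 in sensitive tumours 1 to 3, with 588 in sensitive tumour 4. All resistant tumours lay above sensitive tumours 1 to 3 and below sensitive tumour 4. The log2 fold change was 3.10 ± 0.53 (adjusted p = 0.00255) without sensitive tumour 4 and 2.14 ± 0.92 (adjusted p = 0.191) with it. Cdk1 itself had 263, 155, 174 and 309.8 in resistant tumours 1 to 4, against 71.4, 48.0 and 23.2 in sensitive tumours 1 to 3, with 347 in sensitive tumour 4, with log2 fold changes of 2.30 ± 0.41 (adjusted p = 0.00298) without sensitive tumour 4 and 1.56 ± 0.71 (adjusted p = 0.209) with it. Ccnb2, the second B-type cyclin, had 217, 113, 149 and 246 in resistant tumours 1 to 4, against 81.7, 73.5 and 28.2 in sensitive tumours 1 to 3, with 342 in sensitive tumour 4. For both genes the resistant tumours were all above sensitive tumours 1 to 3 and below sensitive tumour 4. Ccnb2 rose by a smaller factor than Ccnb1, at 1.63 ± 0.42 (adjusted p = 0.0159) without sensitive tumour 4 and 0.97 ± 0.66 with it, and the difference between them was not tested. Foxm1, a transcription factor of G2 genes, had 1171, 452, 696 and 781 in resistant tumours 1 to 4, against 172, 138 and 121 in sensitive tumours 1 to 3, with 1383 in sensitive tumour 4, and its log2 fold changes were 2.36 ± 0.30 (adjusted p = 0.000754) and 1.54 ± 0.72 (adjusted p = 0.218) without and with sensitive tumour 4. The resistant tumours stood clear of sensitive tumours 1 to 3 and all below sensitive tumour 4. Ccna2, the cyclin of S and G2 phase, and Cdc25c, a phosphatase that activates Cdk1, rose with log2 fold changes of 2.06 ± 0.28 and 2.32 ± 0.40 without sensitive tumour 4. With it they were 1.39 ± 0.60 for Ccna2 and 1.49 ± 0.77 for Cdc25c.

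Cdc25b and Ccnf, the other 2 genes of this group, did not pass. Cdc25b, which starts Cdk1 activation at the centrosome, had 246, 234, 294 and 137 normalized counts in resistant tumours 1 to 4, against 249, 277 and 303 in sensitive tumours 1 to 3, with 357 in sensitive tumour 4. Resistant tumour 4 was the lowest of the 8, sensitive tumour 4 the highest, and the groups overlapped with and without it. Its log2 fold change was -0.33 ± 0.26 (adjusted p = 0.348) without sensitive tumour 4 and -0.42 ± 0.26 (adjusted p = 0.314) with it. Ccnf, the F-box cyclin that directs proteins to destruction in G2, had 166, 119, 101 and 250.5 in resistant tumours 1 to 4, against 85.2, 98.9 and 74.5 in sensitive tumours 1 to 3, with 219.9 in sensitive tumour 4. The resistant tumours all lay above sensitive tumours 1 to 3, but the log2 fold change of 0.80 ± 0.32 (adjusted p = 0.0758) did not pass, nor that of 0.46 ± 0.41 with sensitive tumour 4. It passed with DESeq2 and with resistant tumour 3 left out.

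All 7 mitotic kinases rose without sensitive tumour 4, each at least 2-fold, against 20.6% of all genes higher and 12.3% at least 2-fold higher. Plk1, needed for centrosome maturation and mitotic entry, had 407, 149.6, 196 and 297 normalized counts in resistant tumours 1 to 4, against 72.5, 72.1 and 39.7 in sensitive tumours 1 to 3, with 414 in sensitive tumour 4. Its log2 fold change was 2.02 ± 0.38 (adjusted p = 0.00385) without sensitive tumour 4 and 1.33 ± 0.67 (adjusted p = 0.238) with it. The lowest resistant tumour had more than the highest of sensitive tumours 1 to 3. Aurka, the centrosomal Aurora kinase, had 189.7, 109, 101 and 186 in resistant tumours 1 to 4, against 66.8, 72.1 and 46.4 in sensitive tumours 1 to 3, with 326 in sensitive tumour 4, where it was far higher than in any other tumour. Aurkb, the Aurora kinase of the chromosomal passenger complex, had 503, 161, 278 and 481 in resistant tumours 1 to 4, against 78.3, 46.6 and 36.4 in sensitive tumours 1 to 3, with 614 in sensitive tumour 4. The log2 fold change was 1.20 ± 0.31 (adjusted p = 0.0154) for Aurka and 2.64 ± 0.43 (adjusted p = 0.00223) for Aurkb without sensitive tumour 4, and 0.60 ± 0.57 and 1.74 ± 0.83 with it. The Aurka call was lost when sensitive tumour 3 was also left out. The checkpoint kinase Bub1 had 713, 267, 349.6 and 628 in resistant tumours 1 to 4, against 102, 46.6 and 43.1 in sensitive tumours 1 to 3, with 925 in sensitive tumour 4, and rose with a log2 fold change of 2.91 ± 0.42 (adjusted p = 0.00128) without it, against 1.93 ± 0.89 with it. Its relative Bub1b, which encodes the checkpoint protein BubR1, had 598, 245, 296 and 658 in resistant tumours 1 to 4, against 119, 103 and 67.9 in sensitive tumours 1 to 3, with 931 in sensitive tumour 4, and rose with a log2 fold change of 2.12 ± 0.39 (adjusted p = 0.00344) without it, against 1.29 ± 0.76 with it. In both, all resistant tumours lay between sensitive tumours 1 to 3 and sensitive tumour 4. Ttk, the kinase that starts checkpoint signalling, and Nek2, which splits centrosomes, rose with log2 fold changes of 1.75 ± 0.43 and 1.90 ± 0.44, which were 1.14 ± 0.63 for Ttk and 1.25 ± 0.67 for Nek2 with sensitive tumour 4.

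Of the 6 checkpoint and anaphase genes, 5 rose without sensitive tumour 4, against 20.6% of all genes, and separase did not. Cdc20, the activator of the anaphase-promoting complex, had 122, 91.1, 109 and 163 normalized counts in resistant tumours 1 to 4, against 62.2, 41.0 and 24.8 in sensitive tumours 1 to 3, with 181 in sensitive tumour 4. Its log2 fold change was 1.55 ± 0.35 (adjusted p = 0.00843) without sensitive tumour 4 and 1.01 ± 0.54 with it. Every resistant tumour exceeded sensitive tumours 1 to 3 and stayed below sensitive tumour 4. Pttg1, which encodes securin, the inhibitor of separase, had 150.4, 129.6, 113 and 123 in resistant tumours 1 to 4, against 47.2, 62.2 and 26.5 in sensitive tumours 1 to 3, with 128 in sensitive tumour 4, which lay within the resistant range. It rose with a log2 fold change of 1.56 ± 0.31 (adjusted p = 0.00473) without sensitive tumour 4, against 1.17 ± 0.43 with it. Espl1, separase itself, had 323, 229.6, 356 and 244 in resistant tumours 1 to 4, against 381, 362 and 742 in sensitive tumours 1 to 3, with 419.6 in sensitive tumour 4. All resistant tumours lay below all sensitive ones, and sensitive tumour 3, the lowest for nearly all other members, was the highest here. The log2 fold change was -0.68 ± 0.27 (adjusted p = 0.171) in all 8 tumours and -0.72 ± 0.29 (adjusted p = 0.0738) without sensitive tumour 4, and it passed in the 7 tumours with DESeq2 and with total-read scaling. Bub3, a checkpoint protein that all cells carry, had 1005, 733, 935 and 999 in resistant tumours 1 to 4, against 684, 669.7 and 674 in sensitive tumours 1 to 3, with 1082 in sensitive tumour 4. The groups stood apart without sensitive tumour 4, with a log2 fold change of 0.43 ± 0.15 (adjusted p = 0.0496), a call that 12 of the 18 alternatives lost, and of 0.26 ± 0.20 with all 8 tumours. Ube2c, the ubiquitin-conjugating enzyme of the anaphase-promoting complex, rose with a log2 fold change of 2.25 ± 0.29 and the checkpoint effector Mad2l1, whose promoter holds none of the motifs, with 1.69 ± 0.29. With all 8 tumours these were 1.55 ± 0.63 for Ube2c and 1.20 ± 0.48 for Mad2l1.

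All 7 kinetochore and centromere genes rose without sensitive tumour 4, against 20.6% of all genes. The largest fold change of all members was that of Nuf2, a microtubule-binding subunit of the NDC80 complex whose promoter window is also free of the motifs. It had 175, 105, 99.9 and 188 normalized counts in resistant tumours 1 to 4, against 18.4, 25.4 and 4.97 in sensitive tumours 1 to 3, with 224 in sensitive tumour 4. The lowest of these, in sensitive tumour 3, rests on 3 reads. The log2 fold change was 3.24 ± 0.52 (adjusted p = 0.00191) without sensitive tumour 4 and 2.25 ± 0.93 (adjusted p = 0.182) with it. Ndc80, its partner, rose with a log2 fold change of 1.98 ± 0.43, against 1.39 ± 0.62 with all 8 tumours. Birc5, survivin, which takes the chromosomal passenger complex to the centromere, had 389.97, 201, 228 and 317 in resistant tumours 1 to 4, against 131, 107 and 84.5 in sensitive tumours 1 to 3, with 375 in sensitive tumour 4. It rose with a log2 fold change of 1.36 ± 0.28 (adjusted p = 0.00551) without sensitive tumour 4, with no overlap between the groups, and the value was 0.91 ± 0.45 with it. Cenpa, the histone that marks centromeres, rose with a log2 fold change of 1.15 ± 0.22, the kinetochore motor Cenpe with 2.37 ± 0.36, Cenpn, which binds that histone, with 2.07 ± 0.28, and Cenpf, a large kinetochore protein of G2 and M phase, with 1.38 ± 0.37. The Cenpf call was lost when sensitive tumour 3 was left out too. In all 8 tumours the log2 fold change was 0.75 ± 0.39 for Cenpa, 1.58 ± 0.72 for Cenpe, 1.46 ± 0.57 for Cenpn and 0.81 ± 0.57 for Cenpf, and none passed.

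All 7 spindle and motor genes and all 3 cytokinesis genes rose without sensitive tumour 4, against 20.6% of all genes. Kif11, the motor that pushes the spindle poles apart, had 1336, 584, 832 and 1481 normalized counts in resistant tumours 1 to 4, against 253, 187 and 91.1 in sensitive tumours 1 to 3, with 1810.2 in sensitive tumour 4. The resistant tumours lay well above sensitive tumours 1 to 3 and below sensitive tumour 4. The log2 fold change was 2.60 ± 0.41 (adjusted p = 0.00191) without sensitive tumour 4 and 1.73 ± 0.80 (adjusted p = 0.213) with it. The chromosome motor Kif4 rose with a log2 fold change of 2.85 ± 0.39, the spindle assembly factor Tpx2 with 2.79 ± 0.41, the midzone bundler Prc1 with 2.54 ± 0.36, the microtubule depolymerase Kif2c with 2.01 ± 0.34 and Kif23, a motor of the midzone, with 1.81 ± 0.41. Kif20a, a motor of late mitosis, rose least of the 7, with a log2 fold change of 0.81 ± 0.21 (adjusted p = 0.0167), and lost its call when sensitive tumour 2 or 3 was left out too. Of the cytokinesis genes, the ring scaffold Anln rose with a log2 fold change of 2.96 ± 0.36, and Ect2, the exchange factor that switches on RhoA at the cleavage furrow, with 2.72 ± 0.40. Racgap1, the partner of Kif23 in the midzone complex, rose with a log2 fold change of 2.30 ± 0.28. With sensitive tumour 4 kept, none of these passed, and the log2 fold changes were 1.86 ± 0.88 for Kif4, 1.80 ± 0.89 for Tpx2, 1.78 ± 0.71 for Prc1, 1.35 ± 0.63 for Kif2c, 1.14 ± 0.66 for Kif23 and 0.41 ± 0.38 for Kif20a. Those of the cytokinesis genes were 1.996 ± 0.85 for Anln, 1.94 ± 0.73 for Ect2 and 1.49 ± 0.71 for Racgap1.

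Mki67 and Top2a are the members most used to mark dividing cells. Mki67, which coats mitotic chromosomes, had 13019.5, 4119, 7829 and 10507 normalized counts in resistant tumours 1 to 4, against 1778, 1549.9 and 669 in sensitive tumours 1 to 3, with 10819.8 in sensitive tumour 4. Top2a, the topoisomerase that untangles sister chromatids, had 4695, 1972, 2541 and 4336 in resistant tumours 1 to 4, against 626, 466 and 189 in sensitive tumours 1 to 3, with 6002 in sensitive tumour 4. Every resistant tumour exceeded sensitive tumours 1 to 3, resistant tumour 2 was the lowest of its group for both genes, and sensitive tumour 4 lay within the resistant range for Mki67 and above it for Top2a. The log2 fold change without sensitive tumour 4 was 2.73 ± 0.44 (adjusted p = 0.00208) for Mki67 and 3.06 ± 0.44 (adjusted p = 0.00126) for Top2a. With all 8 tumours it was 1.95 ± 0.76 (adjusted p = 0.169) for Mki67 and 2.06 ± 0.91 (adjusted p = 0.197) for Top2a.

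The members varied together from tumour to tumour, among the resistant tumours as well. Over the 780 pairs of members the median Pearson correlation of log2 values was 0.963 in the 8 tumours, and 89.9% of pairs were above 0.8, with Espl1 (median r with the others -0.582) and Cdc25b (-0.235) as the members least like the rest. Among the 4 resistant tumours alone the median was 0.891, and resistant tumour 2 was the lowest of them for 30 members. These correlations describe few libraries whose members share depth and scaling. They were not computed among the sensitive tumours alone or over pairs of other genes, so whether such values are particular to the members was not tested. The highest over the lowest resistant tumour was a median of 2.19-fold, from 1.34-fold for Pttg1 to 3.16-fold for Mki67. Among sensitive tumours 1 to 3 it was 2.28-fold, from 1.02-fold for Bub3 to 5.12-fold for Nuf2.

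In all 8 tumours 0 genes of any list of cell type markers passed, and the counts that follow hold without sensitive tumour 4, where 20.6% of all genes were higher and 19.4% lower. All 5 neutrophil markers were higher in the resistant tumours, and their summed normalized counts were 6149.7 to 8966 in resistant tumours, 633 to 1077 in sensitive tumours 1 to 3, with 16352 in sensitive tumour 4. Of the 7 keratinocyte markers 5 were lower. Krt17 (0.21 ± 0.33) and Cdh1 (0.34 ± 0.15) had positive log2 fold changes that did not pass. For Cdh1 every resistant tumour lay above sensitive tumours 1 to 3. The list's sums were 37827 to 90914.5 in resistant tumours, 158434 to 218602 in sensitive tumours 1 to 3, with 97953 in sensitive tumour 4. The largest means in sensitive tumours 1 to 3 were 84217 for Krt5, 35812 for Krt14 and 33493 for Krt15. The 3 Hedgehog markers were all higher, with sums of 4034 to 7816 in resistant tumours, 733 to 1606 in sensitive tumours 1 to 3, with 6557 in sensitive tumour 4. Of these lists no marker was at 0 reads in any tumour. The summed T-cell markers had 12.7 to 23.7 normalized counts in resistant tumours and 8.28 to 15.5 in sensitive tumours, with 1 to 3 of the 5 at 0 reads in each. Of the fibroblast markers 2 of 6 were lower and 0 higher, of the endothelial ones 2 of 5 were higher, and of the macrophage ones 1 of 6. The melanocyte list, of 5 genes, had 2 of 3 tested genes lower, Dct and Sox10. The skeletal muscle list, also of 5, had 1 of 1 tested higher, Tnnt3, and the B-cell list 0 of 2 called. Dct, Sox10 and Tnnt3 reached the filter on low values only through the group where they were higher, so the filter itself favoured their direction. The same limit holds for Retnlg, 1 of the neutrophil markers counted above. It had 229 to 434 normalized counts in resistant tumours, against 6.62 to 40.3 in sensitive tumours 1 to 3. In all 8 tumours Dct and Sox10 were too low to be tested. These lists are not fully particular to the cells named. In ASZ001 cells, vehicle libraries had mean normalized counts of 57.1 for the neutrophil marker Cxcr2, 421 for the macrophage marker Cd68 and 882 for the endothelial marker Pecam1. Of the 5 neutrophil markers only Cxcr2 reached the filter there. The part of any of these cells in the mitotic difference was not tested.

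Genes that act beside the members were read from further lists, for which the shares over all genes are the same 20.6% higher and 19.4% lower. Of 77 other mitosis genes, 61 rose and 0 fell without sensitive tumour 4 (median log2 fold change 1.69), among them 3.33 ± 0.37 for the kinetochore subunit Ska3, 3.22 ± 0.36 for the abscission gene Cep55, 2.17 ± 0.25 for the centriole kinase Plk4 and 2.37 ± 0.28 for the spindle protein Ckap2l. Of 42 S-phase genes, 31 rose and 0 fell, with a smaller median of 0.91, led by Uhrf1 (2.50 ± 0.18), which maintains DNA methylation, the helicase genes Mcm5 (2.996 ± 0.26) and Mcm3 (2.67 ± 0.24), and the licensing factor Cdt1 (1.75 ± 0.17). Of 22 subunits and relatives of MuvB, E2F and NF-Y, 10 rose and 4 fell (median 0.31). Those of smallest p were E2f8 (3.43 ± 0.36), E2f1 (1.70 ± 0.26), E2f7 (2.94 ± 0.57) and Tfdp1 (0.89 ± 0.17), and the 4 that fell, named after their values were seen, were Lin37, Rbbp4, Tfdp2 and Rbl2. Of 16 genes of the anaphase-promoting complex 3 were higher and 4 lower (median 0.14), shares near those over all genes. Those of smallest p were Ube2s (1.04 ± 0.21), Cdc16 (0.57 ± 0.16), Anapc13 (-1.09 ± 0.20) and Anapc2 (-0.81 ± 0.16). Of the CDK inhibitors, Cdkn1a (p21) rose with a log2 fold change of 1.21 ± 0.25 and Cdkn2a with 0.96 ± 0.27. Cdkn1b (0.20 ± 0.15), Cdkn1c (-1.99 ± 0.99), Cdkn2b (0.24 ± 0.19) and Cdkn2c (0.59 ± 0.32) did not pass, and Cdkn2d was too low to be tested. In all 8 tumours 0 genes of these 5 lists passed. The medians there were 1.12 for the other mitosis genes, 0.60 for the S-phase genes, 0.16 for the MuvB, E2F and NF-Y list, 0.033 for the anaphase-promoting complex and 0.35 for the CDK inhibitors. Of the genes named, the mitosis genes then had log2 fold changes of 2.43 ± 0.82 (Ska3), 2.16 ± 0.92 (Cep55), 1.56 ± 0.54 (Plk4) and 1.58 ± 0.69 (Ckap2l), and the S-phase genes 1.79 ± 0.60 (Uhrf1), 2.02 ± 0.83 (Mcm5), 1.84 ± 0.71 (Mcm3) and 1.19 ± 0.49 (Cdt1). The regulators had 2.39 ± 0.91 (E2f8), 1.10 ± 0.54 (E2f1), 2.15 ± 0.83 (E2f7) and 0.53 ± 0.33 (Tfdp1), and the genes of the anaphase-promoting complex 0.78 ± 0.29 (Ube2s), 0.35 ± 0.24 (Cdc16), -0.88 ± 0.26 (Anapc13) and -0.69 ± 0.19 (Anapc2). The CDK inhibitors had 0.73 ± 0.46 (Cdkn1a), 0.80 ± 0.28 (Cdkn2a), 0.18 ± 0.15 (Cdkn1b), -1.44 ± 1.0 (Cdkn1c), 0.30 ± 0.19 (Cdkn2b) and 0.41 ± 0.33 (Cdkn2c).

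CCG-1423 was compared with vehicle in ASZ001 cells to ask how the mitotic genes differ in cells given this compound. Whether MRTF signalling was blocked in these libraries was not tested here. The mitotic genes were higher in cells given CCG-1423, by 1.15-fold to 2.69-fold for those that passed. Together they took 0.295%, 0.329% and 0.326% of reads with CCG-1423, 0.190%, 0.170% and 0.179% with vismodegib and 0.179%, 0.165% and 0.169% with vehicle. Of the 40 members 39 rose with CCG-1423, against 42.8% of the 12775 genes tested, and 0 fell, against 42.6%. Since 85.3% of all genes passed in either direction, passing alone sets few genes apart. At least 2-fold higher were 14 members, against 11.7% of genes, and this count ran from 10 to 17 over the alternatives. The median log2 fold change was 0.91 for the members and 0.0034 for all genes. The groups of 3 did not overlap for the same number of members, 39 higher (43% of genes) and 0 lower (42.8%). By role the median was 1.34 for cytokinesis, 0.97 for the kinases, 0.92 for spindle and motor genes, 0.90 for Mki67 and Top2a, 0.72 for checkpoint and anaphase genes, 0.69 for kinetochore genes and 0.65 for the cyclins and regulators. These medians were not tested against each other.

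**Figure D4:**
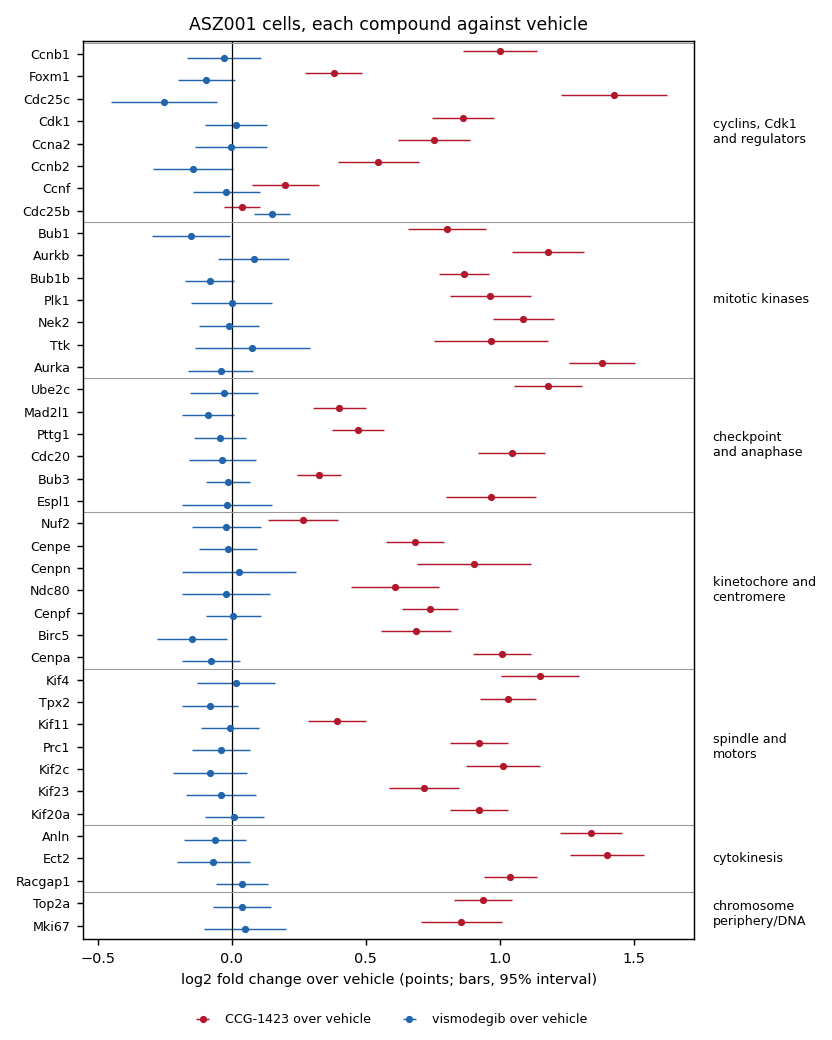
Log2 fold change over vehicle of each member in ASZ001 cells (points), with its 95% interval (bars), for CCG-1423 (red) and vismodegib (blue), 3 libraries per group. Red points lie right of 0 from 0.038 for Cdc25b to 1.43 for Cdc25c, and blue points lie near 0 from -0.25 for Cdc25c to 0.15 for Cdc25b. Both are set against the same 3 vehicle libraries.

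The largest rises were those of Cdc25c, Ect2 and Aurka. Cdc25c had 818, 884 and 862 normalized counts with CCG-1423, 299, 232 and 272 with vismodegib and 353, 316 and 286 with vehicle, and rose with a log2 fold change of 1.43 ± 0.092 (adjusted p = 5.96e-10). Ect2 had 3143, 3562 and 3505 with CCG-1423, 1357, 1182 and 1151 with vismodegib and 1380.4, 1221 and 1261 with vehicle, and rose with a log2 fold change of 1.40 ± 0.064 (adjusted p = 8.08e-12). Aurka had 3261, 3866 and 3662 with CCG-1423, 1371, 1275 and 1365 with vismodegib and 1438, 1292 and 1400.01 with vehicle, and rose with a log2 fold change of 1.38 ± 0.057 (adjusted p = 2.42e-12). In all of them the CCG-1423 libraries stood far above the other 6. The ring scaffold Anln followed with 1.34 ± 0.055, then Aurkb with 1.18 ± 0.062 from 1929.8, 2251 and 2106 normalized counts with CCG-1423, 1026, 891 and 1019 with vismodegib and 916, 889 and 963 with vehicle. Ube2c rose with a log2 fold change of 1.18 ± 0.059 and Kif4 with 1.15 ± 0.068.

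The smallest responses spanned several roles. Cdc25b had 3519, 3321 and 3417 normalized counts with CCG-1423 and 3377, 3332 and 3276 with vehicle, which overlapped, and its log2 fold change was 0.038 ± 0.031 (adjusted p = 0.261), with a 95% interval from -0.028 to 0.11. Ccnf had 974, 913 and 984 with CCG-1423, 838, 758 and 872 with vismodegib and 879, 795 and 824 with vehicle, and rose with a log2 fold change of 0.20 ± 0.059 (adjusted p = 0.00502). Nuf2, the member of largest fold in the tumours, had 839, 873 and 946 with CCG-1423, 774, 667 and 739.8 with vismodegib and 744, 732 and 730 with vehicle, and rose with a log2 fold change of 0.27 ± 0.060 (adjusted p = 0.000729). For Ccnf and Nuf2 the CCG-1423 libraries were the highest of the 9. Bub3 had 3374, 3692 and 3736 with CCG-1423, 2855, 2819.5 and 2851 with vismodegib and 2908, 2920.3 and 2777 with vehicle, with a log2 fold change of 0.33 ± 0.039 (adjusted p = 1.04e-06). Foxm1, at 3824, 4091 and 3885 with CCG-1423, 3001, 2643 and 2858 with vismodegib and 3223, 2845 and 3004 with vehicle, rose with a log2 fold change of 0.38 ± 0.050 (adjusted p = 3.18e-06). Kif11 had 2581, 2846 and 2738 with CCG-1423, 2240.1, 2007 and 1949 with vismodegib and 2151, 2007 and 2059 with vehicle, a log2 fold change of 0.39 ± 0.051 (adjusted p = 2.7e-06). Pttg1 had 1033, 1101 and 1037 with CCG-1423, 747, 726 and 743 with vismodegib and 752, 762 and 771 with vehicle, a log2 fold change of 0.47 ± 0.045 (adjusted p = 8.26e-08). In these 4 genes too all CCG-1423 libraries exceeded the other 6. The members whose windows hold no motif, Nuf2, Mad2l1 and Pttg1, ranked 3, 7 and 8 from the lowest of the 40 in fold change with CCG-1423, while in the tumours without sensitive tumour 4 they ranked 40, 13 and 11. This was noticed after the values were seen and was not tested.

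The remaining landmark genes rose to between these extremes. Mki67 had 3832, 4006 and 3657 normalized counts with CCG-1423, 2505, 2108 and 1981 with vismodegib and 1952, 2122 and 2275 with vehicle, a log2 fold change of 0.86 ± 0.071 (adjusted p = 1.34e-08). Top2a had 13157, 14643 and 14082 with CCG-1423, 7987, 6886 and 7551 with vismodegib and 7617, 6996 and 7209 with vehicle, a log2 fold change of 0.94 ± 0.051 (adjusted p = 6.03e-11). Both stood well above every vismodegib and vehicle library in each CCG-1423 library. Ccnb1 had 3036, 3437 and 3382 with CCG-1423, 1702, 1496 and 1627 with vismodegib and 1732, 1469.8 and 1724 with vehicle, a log2 fold change of 1.002 ± 0.065 (adjusted p = 6.11e-10). Cdk1 had 1719.8, 1936 and 1979.6 with CCG-1423, 1062, 976 and 1091 with vismodegib and 1037, 1022 and 1029.9 with vehicle, a log2 fold change of 0.86 ± 0.055 (adjusted p = 4.58e-10). As in the tumours, the fold change of Ccnb2 was smaller than that of Ccnb1, which was not tested. Ccnb2 had 822, 899.9 and 888 with CCG-1423, 555, 497 and 564 with vismodegib and 653, 548 and 586 with vehicle, a log2 fold change of 0.55 ± 0.070 (adjusted p = 2.42e-06). Plk1 had 2472, 2946 and 2927 with CCG-1423, 1523, 1268 and 1479.7 with vismodegib and 1473, 1414 and 1372 with vehicle, a log2 fold change of 0.97 ± 0.070 (adjusted p = 2.53e-09). The checkpoint, anaphase and passenger genes followed. Bub1b had 2416, 2674 and 2644 with CCG-1423, 1323, 1306 and 1372 with vismodegib and 1449.8, 1401 and 1385 with vehicle, a log2 fold change of 0.87 ± 0.043. Cdc20 had 2498, 2940.1 and 2866 with CCG-1423, 1381, 1253 and 1288 with vismodegib and 1381, 1261 and 1374 with vehicle, a log2 fold change of 1.04 ± 0.059. Birc5 had 1359.95, 1546 and 1474 with CCG-1423, 864, 762 and 824 with vismodegib and 944, 841 and 930.3 with vehicle, a log2 fold change of 0.69 ± 0.062. None of these overlapped with vehicle or vismodegib. Espl1, which did not pass in the tumours and lay lower in every resistant one, rose with CCG-1423 with 0.97 ± 0.079 (adjusted p = 1.05e-08). Over the 40 members the log2 fold changes of the tumours without sensitive tumour 4 and those of CCG-1423 had a Pearson correlation of 0.326 and a Spearman correlation of 0.264. With all 8 tumours these were 0.300 and 0.249, a description across genes that are not independent.

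**Figure D5:**
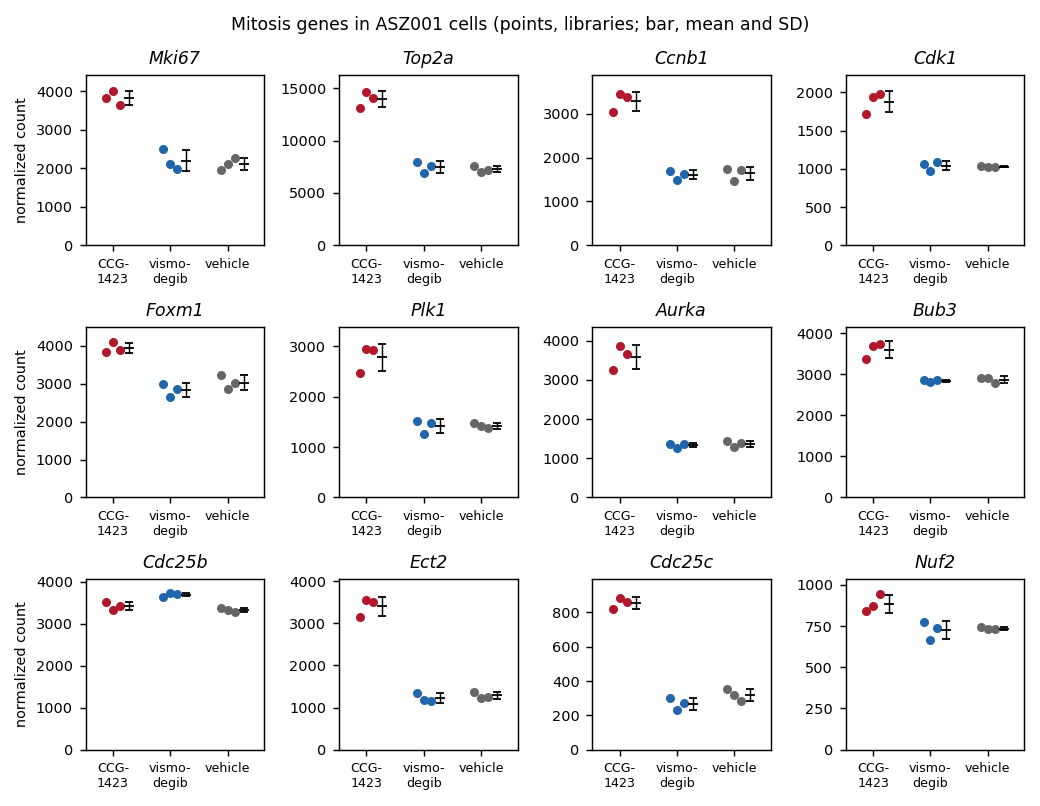
Normalized counts of 12 members in each ASZ001 library (points), with the mean and SD of each group (bars), 3 libraries per group; every y axis starts at 0. In all panels but Cdc25b the CCG-1423 libraries lie above the other 6, which overlap each other; for Cdc25b the vismodegib libraries are the highest.

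With vismodegib, in the same cells, the mitotic genes stayed within a narrow band around vehicle. Of the 40 members 1 rose, Cdc25b, against 1.58% of genes, and 0 fell, against 3.92%. Cdc25b had 3641, 3732 and 3706 normalized counts with vismodegib and 3377, 3332 and 3276 with vehicle, with no overlap and a log2 fold change of 0.15 ± 0.031 (adjusted p = 0.00963). The call was lost without vismodegib library 2, vismodegib library 3 or vehicle library 3. The other 39 did not pass, and their 95% intervals lay between -0.45, the lower bound for Cdc25c, and 0.29, the upper bound for Ttk. Next to Cdc25b the highest fold changes were 0.083 ± 0.062 for Aurkb and 0.078 ± 0.10 for Ttk, which had 328, 245 and 293 with vismodegib and 302, 259 and 256 with vehicle. The lowest were -0.25 ± 0.092 (adjusted p = 0.141) for Cdc25c, -0.15 ± 0.068 (adjusted p = 0.244) for Bub1, which had 605, 563 and 619 with vismodegib and 719, 597 and 675 with vehicle, and -0.15 ± 0.062 (adjusted p = 0.204) for Birc5. In all of these but Cdc25b the groups overlapped. Without overlap were 1 member higher, against 16% of genes, and 3 lower, Bub1b, Mad2l1 and Pttg1, against 14%. The median log2 fold change was -0.021 for the members and 0.011 for all genes, with 11 members positive. The sign of so small a median depends on scaling, since with total-read scaling it was 0.061, 34 members were positive and 90.5% of all calls were higher instead of 28.7%. The Hedgehog target Gli1 had 229, 272 and 240.1 normalized counts with vismodegib and 1216, 1304 and 1100.1 with vehicle in these libraries, a log2 fold change of -2.28 ± 0.092. Ptch1, the other Hedgehog target with reads in these cells, did not pass, at -0.20 ± 0.089 (adjusted p = 0.248). With CCG-1423 over vehicle Gli1 fell (-1.72 ± 0.092) whereas Ptch1 rose (0.85 ± 0.089).

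Set against each other, the compounds differed in all 40 members. CCG-1423 gave higher values than vismodegib for 39 members, against 42.4% of genes, and lower for 1, Cdc25b (-0.11 ± 0.031 (adjusted p = 0.00371)), against 42.4%. At least 2-fold higher were 14 members, against 12.2% of genes, and the median log2 fold change was 0.91. The groups did not overlap for 39 members that were higher (42.6% of genes) and 1 that was lower (42.5%). The largest differences were 1.68 ± 0.092 (adjusted p = 7.64e-11) for Cdc25c, 1.47 ± 0.064 for Ect2 and 1.42 ± 0.057 for Aurka, and the smallest positive ones 0.22 ± 0.059 (adjusted p = 0.00268) for Ccnf and 0.29 ± 0.060 for Nuf2. Both comparisons with vehicle share the same vehicle libraries. Doses are not given, so the compounds cannot be compared at matched doses.

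With CCG-1423, where 42.8% of all genes rose and 42.6% fell, the lists of genes that act beside the members were read against those shares. Of the 77 other mitosis genes 65 rose and 5 fell (median log2 fold change 0.82). Those of smallest p were the centromere gene Cenpt (-1.46 ± 0.042), Hn1 (-1.01 ± 0.033), Arhgap11a (1.37 ± 0.049), a GTPase-activating protein for RhoA, and the condensin subunit Smc4 (0.88 ± 0.038), and the other 3 that fell, named after their values were seen, were Zwint, Cenpm and Kif24. Of the 42 S-phase genes 24 rose and 11 fell (median 0.29). Rrm2, the small subunit of ribonucleotide reductase, fell to 935, 905 and 937 normalized counts with CCG-1423, against 4988, 4829.6 and 4779.5 with vehicle, a log2 fold change of -2.39 ± 0.035, whereas Cdt1 (2.09 ± 0.068), Pold1 (0.97 ± 0.047), a DNA polymerase subunit, and the uracil glycosylase Ung (1.01 ± 0.055) rose. Rrm2 was also the S-phase gene that passed with vismodegib, with a log2 fold change of 0.36 ± 0.035. Of the MuvB, E2F and NF-Y list 14 of 22 rose and 4 fell (median 0.32), with the MuvB subunits Lin54 (1.36 ± 0.045) and Lin9 (1.60 ± 0.079) and E2f4 (0.92 ± 0.038) higher and Rb1 (-0.97 ± 0.042) lower. Of 16 genes of the anaphase-promoting complex 9 rose and 6 fell (median 0.14), which is not far from the shares over all genes. Those of smallest p were Anapc13 (-1.24 ± 0.078), Anapc7 (0.50 ± 0.035), Ube2s (0.65 ± 0.053) and Anapc16 (0.76 ± 0.063). Of the CDK inhibitors, Cdkn2a (-0.51 ± 0.032) and Cdkn1a (-0.34 ± 0.033) fell, Cdkn1b (0.40 ± 0.049), Cdkn2c (0.56 ± 0.079), Cdkn1c (1.04 ± 0.21) and Cdkn2d (0.76 ± 0.20) rose, and Cdkn2b (-0.089 ± 0.041) did not pass. With vismodegib 0 genes of the MuvB, anaphase-promoting complex and CDK inhibitor lists passed, and 1 other mitosis gene, the kinetochore scaffold Casc5, fell (-0.29 ± 0.071). Of the 7 keratinocyte markers 6 were lower with CCG-1423, from -0.38 ± 0.029 for Cdh1 to -6.27 ± 0.076 for Krt15, and Epcam was higher (0.97 ± 0.039). The summed normalized counts of the markers were 246288 to 255877 against 1212870 to 1235420 with vehicle, most of them from Krt5 and Krt14. The part of these markers in the mitotic change was not tested.

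Some members share their place in the genome with other genes. The annotated spans of 16 of the 40 overlap another gene, among them Kif20a with Cdc23 and Brd8, Aurka with Cstf1, Cdc20 with Elovl1, Prc1 with Rccd1, Cenpn with Cmc2 and Ccna2 with Exosc9. Spans run from the start to the end of a gene, introns included, so an overlap does not show that exons are shared. The sources used here do not say whether the counting used strand. Whether reads of any shared exons were told apart is therefore not known.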

How the data were processed

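RNA sequencing tables of 8 tumours and 9 ASZ001 cell libraries were analysed. The deposited signal values are normalized counts, which the authors made from read counts per gene with a size factor for every library, table by table. Whole reads were recovered from the spacing of low values, with 100% of values whole to within 0.01 read. The submitters' processing notes name TopHat, DESeq and mm9 but no versions or roles. The sources used here do not give the counter, the annotation or the use of strand. Promoter windows and gene spans come from RefSeq (GRCm38.p6) and were matched by symbol.

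2-sided limma tests (limma 3.58.1, R 4.3.3) were run on log2(normalized count + 1) with trended empirical Bayes variances. A gene was tested if it reached 10 in as many libraries as the smallest group holds. All 40 members passed this filter in every comparison, and p-values were adjusted by Benjamini-Hochberg over all genes tested. The cell fit held all 9 libraries, which share 1 estimate of the spread. The pseudocount understates fold changes of low genes. Alternatives used edgeR 4.0.16 and DESeq2 1.42.0 on the recovered reads, other pseudocounts, filters and scalings, a replicate block, and libraries left out. The steps were tested on simulated data.

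The members, the lists, the naming rule and the repeat without sensitive tumour 4 were chosen with earlier results of these data known. All members may be named, 16 landmark genes and the 3 largest and 3 smallest fold changes of each comparison are given by library, and of each other list up to 4 passing genes of smallest p, and all CDK inhibitors. Promoters were printed by motif content and tumour fold change. Protein motifs were not searched. P-values measure the spread between libraries, and a floor of 3 reads, 2.09 to 4.97 normalized counts in the tumours, covers counting error only.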

Additional observations from a re-analysis of the deposited data

Results flagged for a closer look

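Values of each member, as log2(normalized count + 1), were examined in the 4 resistant and in the 4 sensitive tumours. A value far from the others of its group was sought in 80 member and group pairs, of which chance alone sets apart about 1 in 20. In 2 of them a library stood apart, both times sensitive tumour 4. Foxm1 had 1383 normalized counts there, a gap to the next sensitive tumour of 0.857 of the group's range, beside 121 to 172 in the other sensitive tumours and 452 to 1171 in the resistant ones. Bub3 had 1082 there, with a gap of 0.957 of the range, beside 669.7 to 684 in the other sensitive tumours and 733 to 1005 in the resistant ones. Both gaps, taken on the log2 scale, exceed the 95% critical value of Dixon's test, and the counts printed give other ratios. All resistant tumours lay below sensitive tumour 4 in both genes. Groups of 3 cell libraries were not examined in this way.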

How the results depend on the processing

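Directions were compared for members that passed, and in 0 of the alternatives was one reversed. All 39 calls of CCG-1423 over vehicle and all 40 of CCG-1423 over vismodegib held in each of the 17 alternatives, and 33 of the 37 tumour calls without sensitive tumour 4 in each of 18. The exceptions, given with the results, are Bub3, Aurka, Cenpf and Kif20a, and the call of Cdc25b with vismodegib. In all 8 tumours the count of genes called, 17, was 0 with a pseudocount of 0.5, a filter at 50, total-read scaling, edgeR, a robust variance and thinned reads, an alternative chosen after the data were seen, and 1625 with DESeq2, which called 0 members. The 17 calls had 3789 genes at an unadjusted p under 0.05 beside them. Without sensitive tumour 4, 0 members were lower, but 1, Espl1, with total-read scaling and 1 with DESeq2. With vismodegib the count of all genes, 703, was 3229 with total-read scaling and 1721 with the groups compared alone in the fit. The cause of these shifts was not tested.

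With single libraries left out, members higher numbered 0 to 37 in all 8 tumours (37 without sensitive tumour 4, 0 without any other), and all genes 0 to 6184. They were 33 to 37 of the members and 3859 to 6244 of all genes with sensitive tumour 4 out already, the lowest count of all genes being without sensitive tumour 2. With vismodegib they were 0 to 1 member and 325 to 498 genes. With CCG-1423 they were 39 members, and 10619 to 10947 genes against vehicle.

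No strong pairing by replicate number was seen, since same-numbered libraries had correlations of their deviations of -0.146 to 0.125. The same-numbered library was still the best partner of resistant tumour 3 and, among the vehicle libraries, of CCG-1423 library 3 and vismodegib libraries 1 and 2. Deviations from means of 3 or 4 libraries cannot show that pairing is absent. With the replicate number as a block, 0 members passed in all 8 tumours (and 0 genes), 36 without sensitive tumour 4 (5798 genes), where resistant tumour 4 has no partner and adds nothing to the fold change, 39 with CCG-1423 over vehicle and 1 with vismodegib (606 genes). Depth limits the lowest values, such as that of Nuf2 in sensitive tumour 3, which rests on 3 reads, and with reads thinned to the shallowest library 36 members passed without sensitive tumour 4.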
